A study of Mus musculus with 6 samples.

Results

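Heat shock proteins and co-chaperones are the genes of protein folding and refolding, and 80 of the 18943 genes in the expression table belonged to them. Members were chosen by name, as symbols that start with Hspa, Hspb, Hsp90, Hsph, Hspd, Hspe, Dnaja, Dnajb, Dnajc or Bag followed by a number, together with Cryab, Hsf1 and Hsf2. By role they comprised 8 small heat shock proteins, 15 HSP70 and HSP110 genes, 3 HSP90 genes, 5 mitochondrial chaperonin genes, 41 J-domain genes, 6 BAG genes and 2 heat shock factors. Of these, 77 are protein coding and 3 are processed pseudogenes, and 75 had a mean value of at least 5 over the 6 libraries and were tested.

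Small heat shock proteins hold unfolding proteins without using ATP. HSP70 proteins refold them in an ATP cycle in which J-domain proteins deliver the client and BAG proteins help to release the nucleotide, and HSP90 proteins complete the maturation of kinases and receptors. In skeletal muscle several small heat shock proteins bind sarcomeric and cytoskeletal filaments, BAG3 and HSPB8 act together in the removal of damaged filamin, and HSF1 is the main transcription factor that induces heat shock genes under stress.

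The cells were muscle stem cells (MuSCs), the resident cells that build new muscle fibres after injury. They were isolated by fluorescence-activated cell sorting from wild-type C57BL/6 mice aged 8 weeks and were kept in culture for 5 days with the solvent DMSO, with endothelin-3 (ET-3) or with neurotensin (NT), 2 peptides that act on G protein-coupled receptors. The labels give 100 nM for each peptide, whereas the methods of the study name other concentrations for cultured cells, and all groups share genotype, strain, age and culture time. Each group held 2 libraries although the design text speaks of triplicates, nothing in the labels ties a library to its own animal or culture, and p-values therefore measure the spread between these libraries, which may be technical. The 2 ET-3 libraries, and likewise the 2 NT libraries, differed by no more than the sampling noise of their reads (mean chi-square per gene 0.885 and 0.927), whereas the DMSO libraries differed by more (1.44). Each treated pair was therefore also counted as 1 sample, and the counts of members on that basis are given after the main ones.

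The deposited values are whole numbers equal to read counts multiplied by 1 factor per library, between 0.781 and 1.19, and the libraries held 3629256 to 5396233 reads on genes. Values below are on that scaled count scale, and fold changes and tests come from limma on log2(value + 1) with Benjamini-Hochberg adjustment over 13921 genes. A gene passed both thresholds when its adjusted p was at most 0.05 and its change at least 2-fold. The label of the cells held in every library, since Pax7, the defining transcription factor of MuSCs, lay between 857 and 1754, although the receptor gene Calcr, a marker of quiescent MuSCs, read 0 to 3 throughout and Cd34, a surface marker of quiescent MuSCs, read 5 and 1 under DMSO against 264 to 330 in the treated libraries. The 13 markers of differentiated muscle moved most: their summed value was 36185 and 40123 under DMSO, 3592 and 3901 under ET-3, and 3820 and 3259 under NT.

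In the ET-3 comparison 8 members passed both thresholds downward and 2 upward, that is 10.7% and 2.7% of the 75 tested, beside 14.9% and 6.62% of all tested genes. With NT, 7 passed downward and 2 upward, or 9.3% and 2.7%, beside 13.2% and 7.3% of all tested genes. Both shares of members lay below those of the whole table in each comparison. With each treated pair counted as 1 sample, 8 and 7 members passed downward (beside 11.9% and 10.4% of all tested genes) and 0 upward (beside 3.33% and 3.4%), and 34 and 31 members (45.3% and 41.3%) had an unadjusted p under 0.05 in limma beside 50.2% and 48.5% of all tested genes. At the adjusted p alone, ET-3 had 23 members higher and 28 lower beside 30.6% and 33.2% of all tested genes, and NT had 14 higher and 33 lower beside 29.7% and 32.5%. Scaling the libraries to equal totals moved the median of all genes up by 0.09 log2 units for ET-3 and 0.11 for NT, and the splits then became 29 higher and 23 lower for ET-3 and 21 higher and 23 lower for NT.

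All 4 treated libraries lay below both DMSO libraries for 34 members (45.3%, beside 36.4% of all tested genes) and above both for 20 members (26.7%, beside 33.2%). The median change over the 75 members was -0.04 with ET-3 and -0.15 with NT, against -0.01 and -0.01 over all tested genes. Counting each treated pair as 1 sample left 5 members higher and 13 lower with ET-3 at the adjusted p, and 4 and 14 with NT, beside 10.5% and 18.2% of all tested genes for ET-3 and 9.16% and 15.7% for NT, so that calls were lost over the whole table. By role, those higher and lower with ET-3 on that basis were 2 and 1 of the HSP70 and HSP110 genes and 1 and 7 of the J-domain genes, with 1 chaperonin gene and 1 BAG gene higher, and with NT 2 and 1, 1 and 8, and 1 BAG gene higher. No HSP90 gene and neither heat shock factor passed. Of the 51 members called at the adjusted p with ET-3 and the 47 with NT, 32 and 26 kept the call with every library left out in turn. The 2 comparisons share their DMSO libraries and are therefore not independent of each other. The summed value of the 80 members was 36700 and 38008 under DMSO, 36420 and 35258 under ET-3, and 32789 and 31792 under NT.

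**Figure D1:**
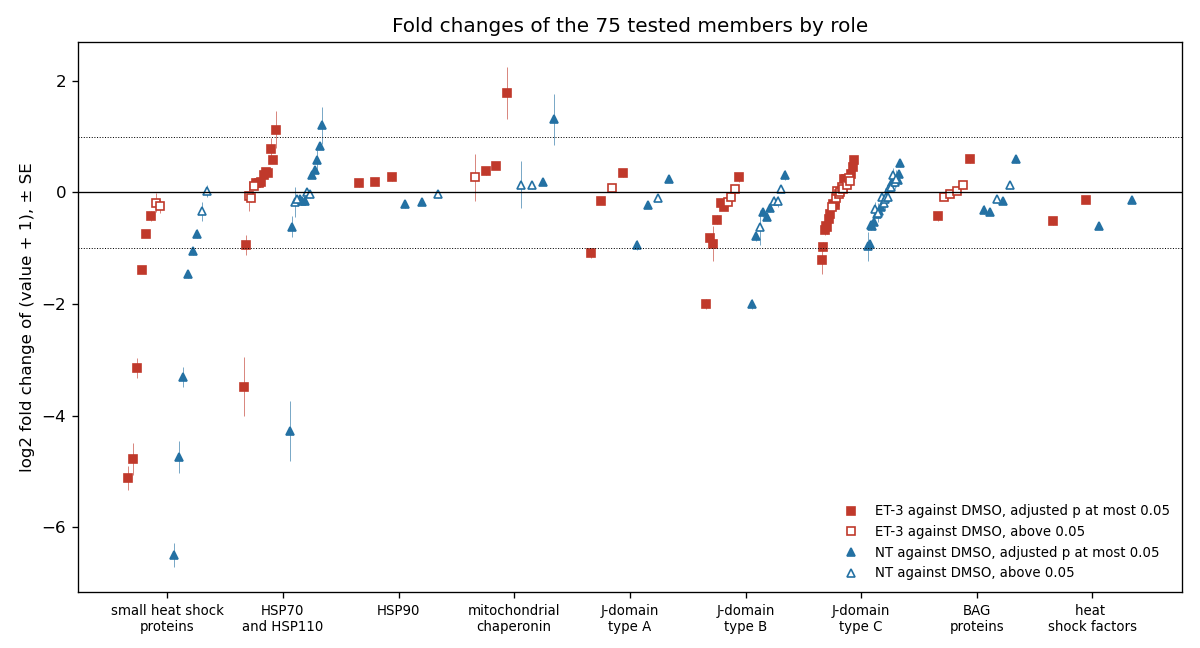
Log2 fold changes of the 75 tested members against DMSO, on the log2(value + 1) scale with standard errors, grouped by role on the horizontal axis. Squares are ET-3 and triangles NT, filled symbols passed an adjusted p of 0.05 and open symbols did not, and dotted lines mark a 2-fold change. The falls of more than 3 log2 units are Hspb7, Hspb3, Hspb2 and Hspa1l, while most HSP70, HSP90 and BAG genes lie within 1 unit of 0.

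The small heat shock proteins held the 2 largest falls, and 4 of the 8 members past both thresholds downward with ET-3 and 5 of the 7 with NT. Of the 8 genes, 6 were lower at the adjusted p in both comparisons, or 5 with each treated pair as 1 sample, at a median change of -1.07 and -1.26. In 7 of the 8 all 4 treated libraries lay below both DMSO libraries. Hspb6 was the exception.

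Hspb7 (chr4:141420779-141425311, plus strand, GRCm38), which encodes a small heat shock protein of heart and skeletal muscle that binds filamin C, fell the most. Its values were 562 and 612 under DMSO, 18 and 14 under ET-3, and 6 and 5 under NT. The groups did not overlap, and the group mean was 36.7-fold lower with ET-3 and 107-fold lower with NT. The change was -5.12 ± 0.22 with ET-3 (SE, adjusted p = 3.04e-08 by limma) and -6.50 ± 0.22 with NT (adjusted p = 7.52e-09 by limma).

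Hspb3 (chr13:113662896-113663676, minus strand) encodes a muscle small heat shock protein that forms a complex with HSPB2. It stood at 194 and 206 under DMSO, 8 and 5 under ET-3, and 6 and 7 under NT. Its mean was 30.8-fold lower in either treated group, and both treated pairs were within a few units of each other. In limma the change was -4.77 ± 0.29 with ET-3 and -4.75 ± 0.29 with NT (adjusted p = 3.41e-07 and 3.80e-07).

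Hspb2 and Cryab lie head to head on chromosome 9, Hspb2 at chr9:50751078-50752354 on the minus strand and Cryab at chr9:50751325-50756636 on the plus strand, and 252 exonic bases are shared, 30.2% of those of Hspb2 and 17.0% of those of Cryab. Hspb2 stood at 321 and 351 under DMSO, 44 and 31 under ET-3, and 32 and 34 under NT, a mean 8.96-fold and 10.2-fold lower. Cryab, the alphaB-crystallin that protects desmin and titin, stood at 564 and 616, 347 and 356, and 280 and 287, a mean 1.68-fold and 2.08-fold lower. The NT change of Cryab, -1.05, fell short of 2-fold without the second DMSO library (-0.99) and with libraries scaled to equal totals (-0.94). In both genes every treated library lay below both DMSO libraries, but the fall of Hspb2 was several times that of its neighbour. Use of strand in the counting is not given in the sources used here. The methods of the study leave out reads that overlap several genes. Without strand, reads from the shared bases would be missing from both, so whether they were counted is not known.

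Hspb8 (chr5:116408491-116422864, minus strand), the partner of BAG3, was the most abundant of the small heat shock proteins per kilobase of exon over the 6 libraries, although Cryab was level with it under ET-3 (238 against 233 per kilobase). Its values were 1139 and 1252 under DMSO, 463 and 447 under ET-3, and 444 and 419 under NT, so that it remained well expressed at a mean 2.63-fold and 2.77-fold lower. Hspb1, the widely expressed HSP27 that caps actin filaments, stood at 274 and 305, 222 and 210, and 180 and 166. That fall was smaller, with changes of -0.42 ± 0.08 and -0.74 ± 0.08 (adjusted p = 0.00149 and 3.40e-05 by limma), and did not reach 2-fold.

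The other two small heat shock proteins passed no threshold. Hspb6, or HSP20, known in smooth and cardiac muscle, stood at 134 and 137 under DMSO, 117 and 111 under ET-3, and 150 and 127 under NT, where the NT values span those of DMSO. Hspb11, which despite its symbol encodes a part of the intraflagellar transport complex of cilia, stood at 60 and 57, 54 and 49, and 47 and 45. The adjusted p of these 2 genes lay between 0.0793 and 0.851 in limma.

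**Figure D2:**
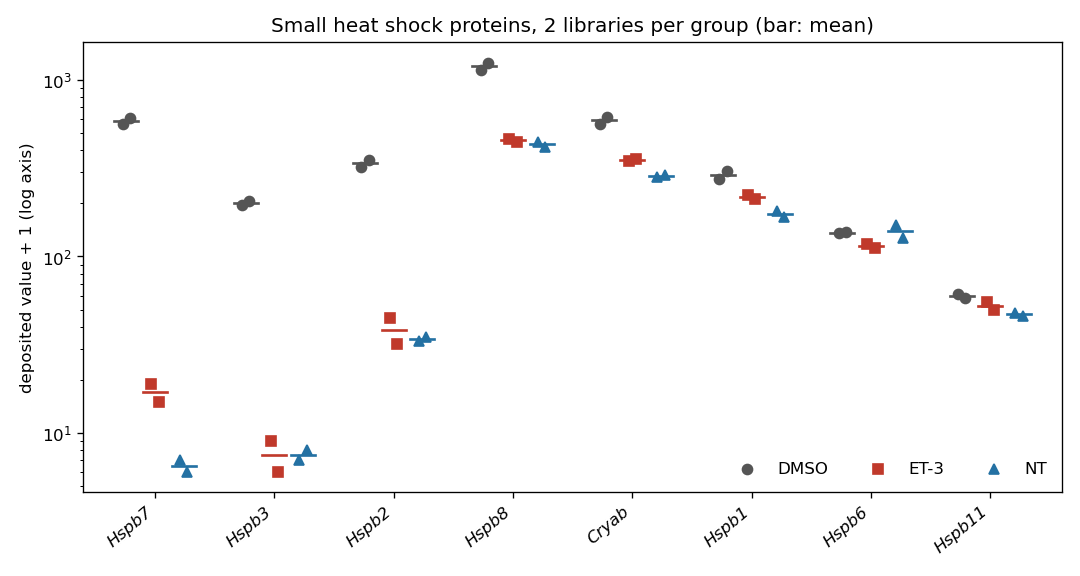
Deposited value + 1 on a log axis for the 8 small heat shock proteins, with a point for each library and a bar for the mean of 2 libraries of DMSO (circles), ET-3 (squares) and NT (triangles). Hspb7, Hspb3 and Hspb2 drop from between 194 and 612 under DMSO to 44 or less in every treated library, while Hspb6 and Hspb11 stay near their DMSO level.

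These falls moved with the markers of differentiated muscle. All 13 of those markers were lower at the adjusted p in both comparisons and 12 passed both thresholds, with a median change of -5.14 with ET-3 and -4.89 with NT. Myh8, a myosin heavy chain of new fibres, read 2268 and 2450 under DMSO, 0 and 0 under ET-3, and 3 and 0 under NT, and Myog, the transcription factor of differentiation, read 1157 and 1335, 31 and 38, and 31 and 28. The part of fewer differentiated cells in the small heat shock protein results was not tested, and in bulk RNA fewer cells of a type and less RNA per cell cannot be told apart.

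The promoter windows of Hspb7, Hspb3 and Hspb8 are shown because these genes fell together. They come from RefSeq on GRCm38.p6 and run from 250 bases before the start site to 50 bases from it, written 5′ to 3′ on the gene's strand. Capitals mark a pair of inverted heat shock element units, spelled GAANNTTC or TTCNNGAA, each of which reads the same on both strands. The windows are chr4:141420529-141420828 on the plus strand, chr13:113663627-113663926 on the minus strand and chr5:116422815-116423114 on the minus strand.
Hspb7: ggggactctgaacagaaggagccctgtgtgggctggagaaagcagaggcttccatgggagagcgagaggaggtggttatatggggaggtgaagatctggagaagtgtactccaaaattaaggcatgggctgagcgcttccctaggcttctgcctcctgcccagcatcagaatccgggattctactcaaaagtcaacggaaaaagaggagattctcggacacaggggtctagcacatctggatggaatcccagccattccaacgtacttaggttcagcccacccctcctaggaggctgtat
Hspb3: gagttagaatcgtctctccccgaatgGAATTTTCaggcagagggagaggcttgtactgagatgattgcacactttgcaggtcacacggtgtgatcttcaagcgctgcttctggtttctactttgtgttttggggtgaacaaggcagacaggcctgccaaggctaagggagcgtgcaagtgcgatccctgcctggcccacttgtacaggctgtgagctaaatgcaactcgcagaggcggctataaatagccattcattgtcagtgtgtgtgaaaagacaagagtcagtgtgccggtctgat
Hspb8: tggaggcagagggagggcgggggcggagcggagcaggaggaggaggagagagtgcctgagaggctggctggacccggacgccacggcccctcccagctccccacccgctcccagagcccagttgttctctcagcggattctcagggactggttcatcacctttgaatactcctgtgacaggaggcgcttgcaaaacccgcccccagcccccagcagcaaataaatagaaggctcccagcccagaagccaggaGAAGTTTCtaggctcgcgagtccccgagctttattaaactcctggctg
Such a pair was found once in the window of Hspb3, 224 bases before the start, once within the first 50 transcribed bases of Hspb8, and not in that of Hspb7. Over the table, 15.1% of 32851 windows held at least 1 such pair. Of the 60 members with a window, 16 had a pair in at least 1 window, beside 4587 of 27025 genes over the table. By window this was 18 of 78 (23.1%). The 16 included 4 of the 6 small heat shock genes with a window (Hspb1, Hspb3, Hspb6 and Hspb8), or 4 of their 7 windows (57.1%). Hspb6 had a pair only in the window whose start site lies 1123 bases from the 5′ end of the gene, and not in its nearer window. The E-box CAGCTG, a core recognised by myogenic transcription factors, stood in 16.3% of all windows, in 16 of the 78 member windows (20.5%) and in 0 of the 7 windows of small heat shock genes. A match is a run of letters and is not evidence of binding.

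Among the 14 tested HSP70 and HSP110 genes, 9 were higher and 2 lower with ET-3 at the adjusted p, and 5 higher and 5 lower with NT, with medians of 0.18 and -0.08. Beside them, 30.6% of all tested genes were higher and 33.2% lower with ET-3, and 29.7% and 32.5% with NT. With library totals as the scale the NT split of the group became 6 higher and 2 lower and its NT median turned to 0.04. Only 1 gene of the group passed both thresholds downward and 1 upward, in either comparison.

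The fall was in Hspa1l (chr17:34972703-34979285, plus strand), an HSP70 gene known mainly from testis. Its values were 31 and 34 under DMSO, 2 and 2 under ET-3, and 2 and 0 under NT. The group mean was 16.25-fold lower with ET-3 and 32.5-fold lower with NT. The recovered reads were 62 with DMSO against 4 with ET-3 and 2 under NT. Pooled and scaled for depth, they were 14.4-fold lower with ET-3 (95% interval 5.35 to 54.5) and 40.2-fold lower with NT (10.7 to 339). These intervals cover counting error only. Of its exonic bases 71.9% are shared with Gm10501, an antisense gene on the minus strand that read 29 and 26, 31 and 39, and 43 and 29. The antisense gene passed no threshold (adjusted p = 0.286 and 0.258 in limma). The methods of the study leave out reads that overlap several genes. If strand was not used, reads on the shared bases would therefore be missing from both genes.

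The rise was in Hspa12b, a distant HSP70 relative known from endothelium. It read 12 and 23 under DMSO, 37 and 38 under ET-3, and 32 and 49 under NT. The treated values all lay above those of DMSO. The mean was 2.14-fold and 2.31-fold higher (adjusted p = 0.0122 and 0.00897 by limma). The DMSO library that read 12 decided both calls, since without it the changes were 0.68 and 0.76 (adjusted p = 0.145 and 0.118 by limma). Leaving out either ET-3 library (adjusted p = 0.0833 and 0.0886) or the NT library that read 49 (0.114) also ended the limma call of that comparison. The endothelial markers moved with it, with a summed value of 24 and 12 under DMSO and 85 to 107 in the treated libraries, most of it from Tek (2 and 1 against 42 to 70), while the defining Cdh5 read 0 to 5 in every library. Their part in this rise was not tested.

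Its relative Hspa12a, which is well expressed in brain and muscle, rose with less spread. It read 233 and 229 under DMSO, 338 and 356 under ET-3, and 407 and 420 under NT. The changes were 0.58 and 0.84 (adjusted p = 1.65e-05 and 1.39e-06 by limma), short of 2-fold, and no group overlapped another.

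The stress-inducible pair Hspa1a and Hspa1b lies beside Hspa1l on chromosome 17, and the 2 genes encode nearly identical proteins. The methods of the study leave out reads that align to several places, so reads common to the pair would be missing from both values. Hspa1b read 40 and 37 under DMSO, 70 and 64 under ET-3, and 65 and 52 under NT, and rose by 0.78 and 0.58 log2 units (adjusted p = 0.00384 and 0.0188 by limma). Hspa1a read 22 and 23, 23 and 20, and 23 and 17, and passed no threshold. All these values are low beside those of the constitutive genes, but such missing reads would lower them, and how many were lost is not known. The promoter windows of the 3 genes are shown because Hspa1a and Hspa1l face away from each other across 546 bases and yet differed in response. The windows are chr17:34972453-34972752 on the plus strand, and chr17:34972107-34972406 and chr17:34959189-34959488 on the minus strand, with capitals as above.
Hspa1l: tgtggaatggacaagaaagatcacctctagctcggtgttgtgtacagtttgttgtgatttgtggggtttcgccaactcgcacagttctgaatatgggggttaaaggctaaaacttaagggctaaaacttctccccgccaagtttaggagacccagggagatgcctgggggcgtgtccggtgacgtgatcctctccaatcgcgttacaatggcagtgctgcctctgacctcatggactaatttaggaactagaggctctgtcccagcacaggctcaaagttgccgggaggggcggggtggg
Hspa1a: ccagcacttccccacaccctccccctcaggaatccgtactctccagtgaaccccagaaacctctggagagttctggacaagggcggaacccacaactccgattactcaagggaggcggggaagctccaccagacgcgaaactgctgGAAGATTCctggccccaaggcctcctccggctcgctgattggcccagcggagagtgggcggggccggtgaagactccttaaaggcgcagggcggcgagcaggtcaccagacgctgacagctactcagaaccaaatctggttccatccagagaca
Hspa1b: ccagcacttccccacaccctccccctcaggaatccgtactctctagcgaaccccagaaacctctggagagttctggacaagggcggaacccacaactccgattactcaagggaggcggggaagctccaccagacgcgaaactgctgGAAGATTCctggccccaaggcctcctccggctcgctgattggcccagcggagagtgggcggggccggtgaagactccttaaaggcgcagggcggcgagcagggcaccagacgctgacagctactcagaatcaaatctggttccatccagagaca
The windows of Hspa1a and Hspa1b each hold 1 heat shock element pair, 104 bases before the start in both, and that of Hspa1l holds none.

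The constitutive HSP70 genes changed little. Hspa8, the cytosolic HSC70, read 594 and 673 under DMSO, 798 and 763 under ET-3, and 640 and 597 under NT, so that it rose with ET-3 (change 0.30, adjusted p = 0.00241 by limma) and overlapped DMSO with NT (change -0.03). Hspa5, or BiP, the HSP70 of the endoplasmic reticulum, read 1400 and 1492, 1655 and 1587, and 1330 and 1279. Hspa9, the mitochondrial mortalin, followed the same order at 1732 and 1844, 2076 and 1964, and 1657 and 1568. Hspa5 and Hspa9 passed the adjusted p upward with ET-3, by 0.17 and 0.18, and downward with NT, by -0.15 for both, and the NT calls were lost with libraries scaled to equal totals (-0.03 and -0.04). Hspa4, an HSP110 relative, read 1797 and 1901, 2061 and 1942, and 1733 and 1660, passing the adjusted p with NT alone (-0.12, adjusted p = 0.0494 by limma), which was also lost with library totals. Hspa5, Hspa9 and Hspa4 lay above 0.2 reads per exonic base. The median change of all tested genes there was 0.13 with ET-3 and -0.08 with NT, whereas with ET-3 it was -0.17 up to 0.05 reads per base.

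Further members of the group rose with both peptides by less than 2-fold. Hspa13, a microsomal HSP70, read 384 and 385 under DMSO, 510 and 474 under ET-3, and 515 and 507 under NT, and Hspa14, which acts at the ribosome, read 289 and 280, 363 and 370, and 351 and 355. Hspa2, an HSP70 of male germ cells, went the other way at 66 and 81, 37 and 38, and 50 and 45. In none of these 3 genes did a treated library overlap those of DMSO.

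The 3 HSP90 genes were all higher with ET-3 at the adjusted p, and with NT 2 of them were lower and 1 passed no threshold, a downward call that was lost for both when libraries were scaled to equal totals. Beside them, 30.6% of all tested genes were higher with ET-3 and 32.5% lower with NT. The ET-3 call was lost in 10 of 14 alternatives for Hsp90ab1, in 4 for Hsp90b1 and in 3 for Hsp90aa1, and no HSP90 gene passed upward without the first DMSO or the first ET-3 library. Hsp90ab1, the constitutive cytosolic HSP90 and the most abundant member per kilobase of exon, read 1963 and 2178 under DMSO, 2400 and 2228 under ET-3, and 1844 and 1721 under NT. Hsp90b1, the HSP90 of the endoplasmic reticulum, read 1393 and 1445, 1670 and 1547, and 1321 and 1215. Hsp90aa1, the inducible form, read 721 and 786, 934 and 881, and 769 and 706. The changes were at most 0.27 log2 units in size, and in each gene the ET-3 libraries were the highest. All 3 genes lay above 0.2 reads per exonic base, where the median change of all tested genes was 0.13 with ET-3 and -0.08 with NT.

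Of the 4 tested mitochondrial chaperonin genes, 3 were higher with ET-3 and 2 with NT at the adjusted p, or 3 with NT when libraries were scaled to equal totals and 0 without a filter on low values. Beside them, 30.6% of all tested genes were higher with ET-3 and 29.7% with NT. Hspd1, or HSP60, read 709 and 744 under DMSO, 1062 and 963 under ET-3, and 864 and 795 under NT, a change of 0.48 with ET-3 and 0.19 with NT (adjusted p = 7.54e-05 and 0.0208 by limma). The NT call was lost in 5 of 14 alternatives, among them those without either DMSO library or the NT library that read 864. Hspe1, the HSP10 lid of the same complex, read 208 and 214, 282 and 270, and 236 and 225. It was higher with ET-3 by 0.39 and passed no threshold with NT. In both genes every treated library lay above both DMSO libraries, and the ET-3 libraries were the highest. The genes lie head to head on chromosome 1, Hspd1 at chr1:55077835-55088243 on the minus strand and Hspe1 at chr1:55088132-55091307 on the plus strand, with 112 shared exonic bases. The window of Hspe1, chr1:55087898-55088197 on the plus strand, is shown because it reaches over the start of Hspe1 and lies in the 5′ part of Hspd1.
Hspe1: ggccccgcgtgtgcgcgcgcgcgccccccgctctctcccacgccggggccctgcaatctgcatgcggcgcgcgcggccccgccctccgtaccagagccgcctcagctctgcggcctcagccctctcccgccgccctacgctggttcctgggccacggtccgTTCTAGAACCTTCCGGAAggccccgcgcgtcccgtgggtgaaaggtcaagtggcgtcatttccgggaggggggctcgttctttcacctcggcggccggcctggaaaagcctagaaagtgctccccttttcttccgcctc
It holds 3 overlapping heat shock element pairs, which start 89, 84 and 79 bases before the start site, the largest number in the windows shown.

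Hspd1-ps3, a processed pseudogene of Hspd1 on chromosome 11, was the only other member past both thresholds upward. It read 4 and 14 under DMSO, 33 and 25 under ET-3, and 21 and 20 under NT. The DMSO libraries differ more from each other than the NT libraries do from the higher of them, and copies of a gene share reads, so this value is uncertain. Without the DMSO library that read 4 the changes were 0.99 and 0.52 in place of 1.78 and 1.31. The ET-3 call was also lost without the ET-3 library that read 33, and the NT call without any ET-3 or NT library (adjusted p from 0.0791 to 0.151 in limma). Hspd1-ps4 was below the filter.

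**Figure D3:**
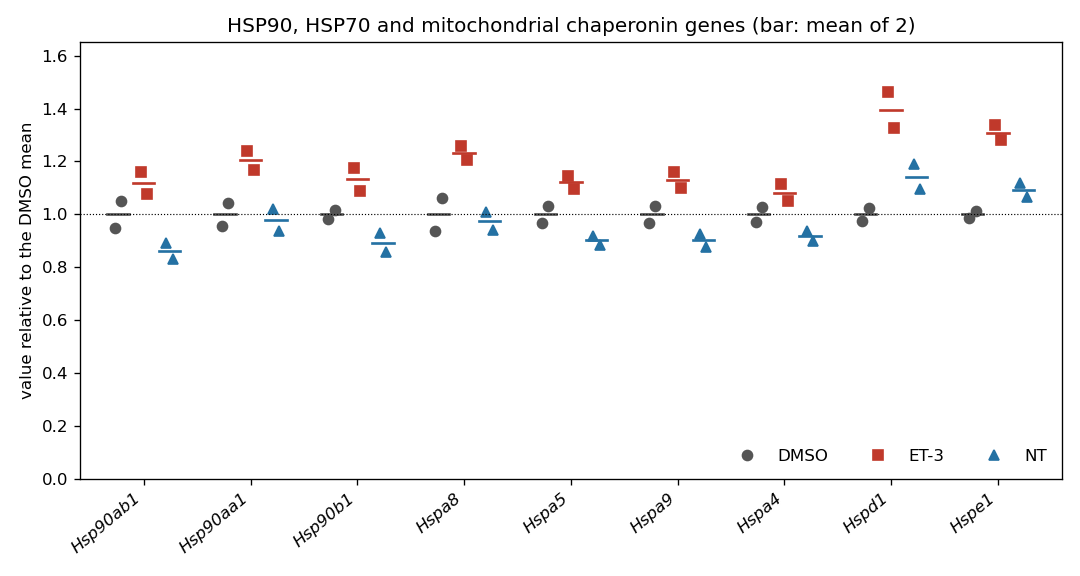
Values of 9 abundant HSP90, HSP70 and mitochondrial chaperonin genes divided by the mean of the 2 DMSO libraries, with a point per library and a bar for the mean of DMSO (circles), ET-3 (squares) and NT (triangles). ET-3 means lie above the dotted line of the DMSO mean in all 9 genes, whereas NT means lie below it in 7 and above it only for Hspd1 and Hspe1.

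Of the 38 tested J-domain genes, 7 were higher and 17 lower with ET-3 at the adjusted p, and 6 higher and 15 lower with NT, with medians of -0.12 and -0.18. Beside them, 30.6% of all tested genes were higher and 33.2% lower with ET-3, and 29.7% and 32.5% with NT. Under scaling to library totals the J-domain counts became 11 higher and 13 lower with ET-3 and 10 higher and 13 lower with NT. The 3 J-domain genes that passed both thresholds did so downward, and 1 of them in both comparisons.

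That gene was Dnajb5 (chr4:42949814-42959425, plus strand), an HSP40 known in striated muscle as a redox-sensitive partner of class II histone deacetylases. It read 482 and 437 under DMSO, 112 and 116 under ET-3, and 119 and 109 under NT. The 4 treated libraries lie within a few units of each other, at a mean 4.03-fold lower in both groups (SE 0.09 log2 units in both, adjusted p = 4.82e-08 and 5.29e-08 by limma).

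Dnaja4, an HSP40 linked to cholesterol metabolism, read 299 and 291 under DMSO, 145 and 132 under ET-3, and 160 and 146 under NT, and passed both thresholds with ET-3 alone, its change with NT being -0.94. The difference between NT and ET-3 did not pass the test (0.14, adjusted p = 0.416 by limma). Of its exonic bases 44.1% overlap Wdr61 on the other strand, which moved the other way at 234 and 252, 343 and 328, and 338 and 312. Dnajc28, a little-studied member of type C, read 40 and 38, 14 and 19, and 18 and 21, and also passed with ET-3 alone, with a change of -0.97 for NT. In both genes no treated library reached the DMSO values, but the ET-3 changes sat at the edge of 2-fold. That of Dnaja4 was -1.09, or just under 1 in size with library totals, and that of Dnajc28 was -1.21, or just under 1 in size without the ET-3 library that read 14.

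Falls short of 2-fold were found in further J-domain genes. Dnajc18 read 355 and 390 under DMSO, 193 and 185 under ET-3, and 190 and 202 under NT. Dnajb2, which is abundant in neurons and muscle and sorts clients to the proteasome, read 372 and 377, 228 and 197, and 213 and 220, and Dnajc5, the cysteine string protein of secretory vesicles, read 1127 and 1110, 728 and 753, and 733 and 740. The treated libraries were close to each other and apart from DMSO in all 3. Dnajb11, an HSP40 of the endoplasmic reticulum that serves BiP, read 706 and 720, 626 and 620, and 533 and 519.

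The largest rise among type C genes was that of Dnajc25 at 216 and 207 under DMSO, 330 and 306 under ET-3, and 307 and 302 under NT (changes 0.59 and 0.52). Dnajc2, which works with Hspa14 at the ribosome, read 500 and 465, 659 and 664, and 633 and 577. Dnaja1, a main cytosolic partner of HSC70, read 319 and 289, 391 and 378, and 369 and 351. Dnajb1, the classical stress-inducible HSP40, read 313 and 259, 353 and 333, and 354 and 351. All treated libraries lay above both DMSO libraries in these 4 genes. The call of Dnajb1 was lost in 8 of 14 alternatives with ET-3 and in 4 with NT. That of Dnaja1 was lost in 1 with ET-3 and in 3 with NT.

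Among the most abundant J-domain genes of each type per kilobase, Dnajc10, a disulfide reductase of the endoplasmic reticulum, rose by 0.24 and 0.18, and Dnajc7 and Dnaja3, the latter mitochondrial, fell by 0.21 and 0.15 on the log2 scale with ET-3 and by 0.32 and 0.23 with NT. The ET-3 call was lost in 5 of 14 alternatives for Dnajc7 and in 7 for Dnaja3. With NT it was lost in 0 and 2. Dnaja2, Dnajb12 and Dnajc8 passed no threshold, with changes between -0.11 and 0.09. Dnajb13, Dnajc6 and Dnajc22 read 0 to 2 in every library and were not tested.

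**Figure D4:**
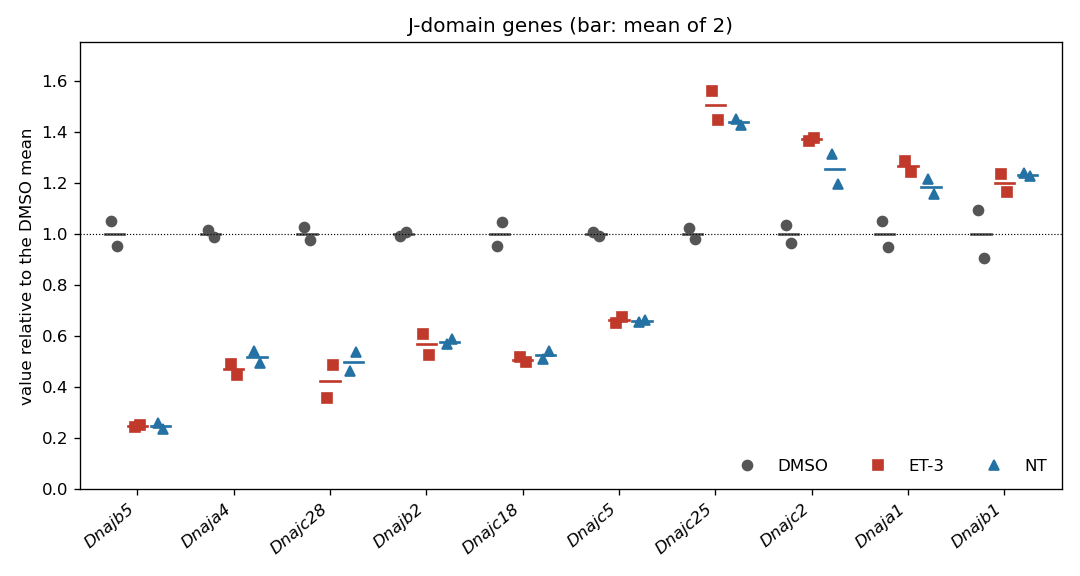
Values of 10 J-domain genes divided by the mean of the 2 DMSO libraries, with a point per library and a bar for the mean of DMSO (circles), ET-3 (squares) and NT (triangles). The first 6 genes lie below the dotted line of the DMSO mean in every treated library, lowest for Dnajb5, and the last 4 lie above it.

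Of the 6 BAG genes, 1 was higher and 1 lower with ET-3 at the adjusted p, and 1 higher and 3 lower with NT, where library totals gave 2 higher and 1 lower in each comparison. All tested genes stood at 30.6% higher and 33.2% lower with ET-3, and 29.7% and 32.5% with NT. Bag3, the muscle co-chaperone of Hspb8, read 758 and 863 under DMSO, 798 and 779 under ET-3, and 758 and 730 under NT, and passed no threshold. Bag2, an inhibitor of the ubiquitin ligase CHIP, fell at 310 and 354, 263 and 229, and 272 and 263, and Bag4, a silencer of death receptors, rose at 201 and 194, 285 and 314, and 292 and 306. The changes were -0.43 and -0.31 for Bag2 and 0.60 and 0.60 for Bag4. The call of Bag2 was lost in 2 of 14 alternatives with ET-3 and in 5 with NT, and that of Bag4 in 0. Bag1, which binds BCL2, read 600 and 637, 586 and 585, and 481 and 483, and Bag6, a guard of membrane proteins, 1475 and 1579, 1586 and 1512, and 1407 and 1328, both lower at the adjusted p with NT alone.

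Hsf1 read 631 and 602 under DMSO, 562 and 563 under ET-3, and 559 and 563 under NT, a fall of 0.13 and 0.14 log2 units (adjusted p = 0.0358 and 0.0326 by limma) that no longer passed when libraries were scaled to equal totals. Its call was lost in 9 of 14 alternatives with ET-3 and in 5 with NT. Hsf2, a second factor active in development, read 487 and 534, 365 and 346, and 331 and 341, and fell by 0.52 and 0.60. Neither factor overlapped between DMSO and the treated groups.

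NT was next compared with ET-3 directly. In that comparison 12 of the 75 members (16.0%) were lower with NT at the adjusted p, beside 2.05% of all tested genes, and 0 were higher, beside 0.647%. At an unadjusted p under 0.05, limma had 21 members lower (28%) and 2 higher, beside 10.2% and 9.66% of all tested genes. These 12 were Hspb7, Cryab, Hsp90ab1, Hsp90b1, Hsp90aa1, Hspa9, Hspa5, Hspa8, Hspa4, Hspd1, Bag1 and Dnajb11. Apart from Hspb7, with a difference of -1.38 ± 0.22 (adjusted p = 0.0379 by limma) on values of 18 and 14 against 6 and 5, the differences lay between -0.38 and -0.24.

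Read coverage moved with this difference. Over all tested genes the median of NT minus ET-3 was 0.11 up to 0.05 reads per exonic base and -0.17 above 0.2, and 9 of the 12 members lay above 0.2, where the median of 15 members was -0.29. The NT libraries were the most deeply sequenced, with 4986890 and 5396233 reads against 3629256 and 3932294 for ET-3, and no gene exceeded 0.789 reads per exonic base in any treated library. With the coverage trend removed, 0 of the 75 members passed the adjusted p in limma, beside 1 of all 13921 tested genes. An unadjusted p under 0.05 in limma was reached by 13 members (17.3%), beside 12.2% of all tested genes. Of these, 11 were lower (14.7%) and 2 higher (2.67%), beside 5.83% and 6.4% of all tested genes. Hspb7, at -1.42, had the smallest adjusted p in limma (0.0771). The 12 calls were also lost without a filter on low values, with the replicate block, with only the 2 groups in the fit, and with any library left out, settings under which 0 of all tested genes passed in limma. At an unadjusted p, 20 or 21 members were still lower and 1 or 2 higher under the first 3 of these settings.

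**Figure D5:**
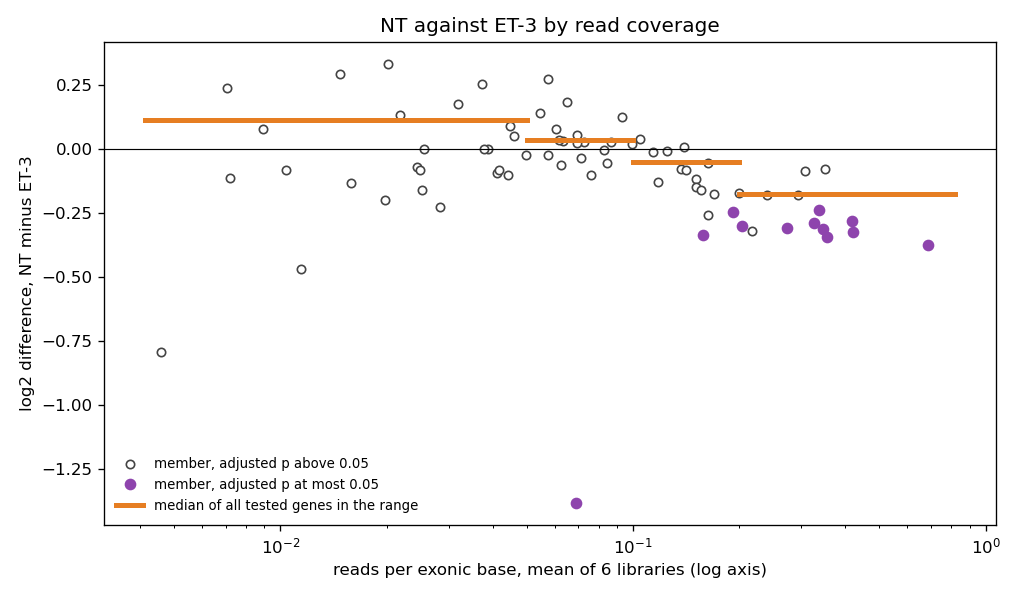
Log2 difference between NT and ET-3 for each of the 75 tested members against its reads per exonic base on a log axis, with filled points for members at an adjusted p of at most 0.05. Bars give the median of all tested genes in 4 ranges of coverage, which falls from 0.11 in the lowest to -0.17 in the highest, and filled points other than Hspb7 lie at more than 0.15 reads per base.

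Partner genes of the HSP70 and HSP90 cycle, 25 in number, were split, with 12 higher and 5 lower with ET-3 and 7 higher and 8 lower with NT at the adjusted p, where scaling to library totals gave 13 higher and 6 lower for NT. The largest falls were those of 2 factors of myosin assembly. Unc45b, the myosin chaperone that works with HSP90, read 1228 and 1296 under DMSO, 6 and 7 under ET-3, and 6 and 2 under NT, and Smyd1, a methyltransferase of the same pathway, read 1563 and 1671, 248 and 275, and 285 and 244. Fkbp5, an HSP90 co-chaperone induced by glucocorticoids, rose at 373 and 335, 554 and 576, and 595 and 619.

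In the chaperone-assisted autophagy list of 6 genes, 1 was higher and 4 lower with ET-3, and 4 were lower with NT. Synpo2, which links BAG3 to autophagosome formation, read 1280 and 1248 under DMSO, 133 and 114 under ET-3, and 126 and 153 under NT, and Flnc, the filamin C client, read 4935 and 5333, 1902 and 1779, and 1880 and 1821. The treated values of these 2 genes lay far below DMSO, while Bag3 itself overlapped.

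Of the 14 genes of the cytosolic TRiC chaperonin and prefoldin, 10 were higher with ET-3 at the adjusted p, 1 was higher and 1 lower with NT (3 higher with library totals), and the changes with ET-3 were at most 0.36 log2 units. All tested genes stood at 30.6% higher and 33.2% lower with ET-3, and 29.7% and 32.5% with NT. Most genes of this list and the next lay above 0.1 reads per exonic base. The median change of all tested genes was 0.10 with ET-3 and 0.02 with NT from 0.1 to 0.2, and 0.13 and -0.08 above 0.2. Of the 22 genes of endoplasmic reticulum folding and the unfolded protein response, 2 were higher and 6 lower with ET-3, and 2 higher and 18 lower with NT. With library totals the first split became 10 higher and 6 lower and the second 2 higher and 9 lower. Ddit3, the stress factor CHOP, fell the most, from 189 and 217 under DMSO to 43 and 40 under ET-3 and 38 and 44 under NT, followed by Herpud1 (changes -0.78 and -0.97) and Atf6 (-0.79 and -0.83), a sensor of the response. Edem1, which helps to discard misfolded glycoproteins, rose by 0.47 and 0.51.

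The 8 mitochondrial partners had 4 higher and 1 lower with ET-3 and 1 higher and 2 lower with NT, or 3 higher and 2 lower with library totals. Trap1, the mitochondrial HSP90, read 587 and 620 under DMSO, 834 and 771 under ET-3, and 752 and 718 under NT. Clpx, the unfoldase of the matrix protease, fell by 0.32 and 0.31 on the log2 scale. All treated libraries of Trap1 lay above DMSO.

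Markers of other cell types were low, apart from those of smooth muscle and pericytes. Summed values were 110 and 116 under DMSO and 94 to 119 in treated libraries for 3 fibroadipogenic markers, 25 and 32 against 51 to 77 for 3 macrophage markers, and 44 and 38 against 17 to 38 for 2 Schwann cell markers. The first 2 sums hide opposite moves. Cd55 read 63 and 68 under DMSO against 22 to 31, Ly6a 27 and 18 against 37 to 52, and Pdgfra 20 and 30 against 26 to 44. Cd14 read 4 and 5 against 24 to 34, Cd68 15 and 14 against 16 to 41, and Csf1r 6 and 13 against 4 to 5. Of 5 smooth muscle and pericyte markers, the sum was 1746 and 2203 under DMSO and 289 to 428 in treated libraries, most of it from Notch3. Pdgfrb read 227 and 278 under DMSO and 3 to 13 in treated libraries, and Rgs5 read 117 and 150 against 2 to 5, while Myh11 and Kcnj8 read 0 to 4. The markers Emcn, Dpt, Pi16, Ptprc, Adgre1, Sox10 and S100b were not analysed here. The smooth muscle and pericyte list moved in the direction of the small heat shock proteins, and its part in their falls was not tested.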

How the data were processed

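RNA of 6 libraries of cultured MuSCs, 2 each of DMSO, ET-3 and NT, was sequenced. The extraction protocol names the SMART-Seq HT kit, whereas the methods of the study describe a different, stranded kit. The submitters' processing notes list Trimmomatic 0.38, STAR 2.7.7a, featureCounts 1.6.5 and DESeq2 1.30.0, while the methods give other versions. The values the authors deposited are a signal, read counts divided by size factors and rounded to whole numbers, and columns of the authors' comparisons were not used. The factor of each library was recovered by a Poisson likelihood of how often each whole number occurred.

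Genes whose values averaged 5 or more were fitted with limma 3.58.1 in R 4.3.3 (lmFit and eBayes with a mean-variance trend, all 6 libraries, no block) on log2(value + 1), with Benjamini-Hochberg adjustment. Because the values are not counts, limma took the place of the DESeq2 test of the methods. The pseudocount understates the change of low genes. Same-numbered libraries did not deviate together (correlations -0.008, -0.070 and -0.022), so the number does not pair them. Replicate libraries were compared by chi-square of their reads, which gave 1.44 per gene for the DMSO pair, against about 1 for counting noise, and 0.885 (ET-3) and 0.927 (NT), so that the treated pairs differed by no more than the sampling noise; an alternative averaged each treated pair and counted it as 1 sample.

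The members, gene lists and tests were chosen with earlier results of these data known. Named are all small heat shock proteins, both heat shock factors, all members past both thresholds, and in each other role the 3 most abundant per kilobase and the largest rise and fall at the adjusted p in both comparisons; Hspa1a, Hspa1b, Hspa2, Hspa8, Hspa12a, Hspa13, Hspa14, Dnajb2, Dnajc2, Dnajc5 and Dnajc18 were added after their values were seen. The rule also names 1 member that is not reported here, which stays in all counts. Gene positions and exonic lengths come from GENCODE M21 on GRCm38, where 77 of the 80 members had the same start and end as in the file. Promoter windows come from RefSeq on GRCm38.p6 and 60 members matched by symbol. Alternatives were no filter, 2 other scalings, pseudocounts of 0.5 and 5, a replicate block, 2 groups only, each treated pair as 1 sample, each library left out, and, added after the data were seen, removal of the coverage trend and omission of genes over 0.2 reads per base.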

Additional observations from a re-analysis of the deposited data

Results flagged for a closer look

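Effects of the 2 peptides on the same gene were compared by the test of NT against ET-3 in limma, and 12 members differed at an adjusted p of 0.05. The differences in log2 units were -1.38 for Hspb7, -0.376 for Hsp90ab1, -0.343 for Hsp90b1, -0.336 for Hspa8, -0.325 for Hspa9, -0.313 for Hspa5, -0.309 for Cryab, -0.300 for Hsp90aa1, -0.287 for Hspd1, -0.280 for Bag1, -0.244 for Dnajb11 and -0.238 for Hspa4. All are lower with NT. Over all tested genes this difference moved with read coverage, as described above. With the coverage trend removed the differences were -1.42 for Hspb7, -0.255 for Hspa8 and -0.174 for Hsp90aa1. Those of the rest lay between -0.13 (Dnajb11) and -0.02 (Hspa4), and 0 members passed the adjusted p in limma.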

How the results depend on the processing

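The counts of members lower past both thresholds (8 with ET-3 and 7 with NT) stayed within 1.5 times under every alternative. The 2 higher with ET-3 became 1 with a pseudocount of 5 and 0 with each treated pair as 1 sample, and 0 to 2 with a library left out. The 2 higher with NT became 1 without a filter, with a pseudocount of 5 or with only the 2 groups, 0 with each treated pair as 1 sample, and 0 to 2 with a library left out. At the adjusted p alone, treated pairs as 1 sample left 5 higher and 13 lower with ET-3 and 4 higher and 14 lower with NT, where fewer samples enter the fit. With a library left out, the higher counts ranged from 12 to 21 with ET-3 and from 8 to 13 with NT. The 12 differences between NT and ET-3 became 0 without a filter, with the replicate block, with only the 2 groups, with treated pairs as 1 sample, with any library left out (0 to 0) and with the coverage trend removed. Beyond that the replicate block moved no count by over 1.5 times; the libraries share only a number, and at the adjusted p it left 22 higher and 27 lower with ET-3.

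Among the named members, directions reversed only in those that passed no threshold in the comparison concerned. Library totals turned Bag1 (0.0107) and Bag3 (0.0524) with ET-3 and Dnaja2 (0.00703), Dnajc8 (0.0367) and Hsp90aa1 (0.0821) with NT. With a library left out, changes spanned 0 with ET-3 for Bag3 (-0.130 to 0.0567) and Bag6 (-0.0281 to 0.0702), and with NT for Hsp90aa1 (-0.0931 to 0.0313) and Hspb6 (-0.0927 to 0.146). The causes were not tested. With 2 libraries a group, genes of few reads such as Hspa1l, Hspa12b and Hspd1-ps3 are the least certain.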
